A study of Mus musculus with 6 samples.

Results

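The *Myc* and *Max* network was examined in CD4+CD8+ double positive (DP) thymocytes that lack NSrp70. Its 9 members were chosen by gene symbol: *Myc*, *Mycn*, *Max*, *Mxd1*, *Mxd3*, *Mxd4*, *Mxi1*, *Mnt* and *Mlx*. All 9 were found among the 23183 gene symbols of the deposited tables, and all 9 were among the 10326 genes tested. The mRNA-seq data comprised 3 libraries of sorted DP thymocytes from *Nsrp1* f/f mice (WT) and 3 from *Nsrp1* f/f CD4Cre mice (NSrp70-cKO), all C57BL/6 and 6 weeks of age. Both genotypes carry the floxed allele, and only the cKO mice carry CD4Cre, a transgene in which Cd4 regulatory sequences drive the recombinase. Deletion is described as starting in late double negative thymocytes, the stage before DP, and an effect of the transgene and an effect of the deletion cannot be told apart. The sources do not say how many mice stand behind each library, and the p-values therefore measure the spread between libraries.

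MYC and its relative MYCN are transcription factors of the basic helix-loop-helix leucine zipper class. They bind DNA only as heterodimers with MAX, preferably at the E-box CACGTG, and they raise transcription of genes for cell growth, ribosome assembly and division. The MXD proteins (with MXI1, also called MXD2) and MNT compete for MAX, bind the same E-box and recruit the SIN3 co-repressor with its histone deacetylases. MLX is a second dimerization hub, which pairs with some of these repressors and with the glucose-responsive factors MondoA and ChREBP. In the thymus, MYC is high in cells that proliferate after the beta-selection checkpoint and falls as they become small resting DP thymocytes.

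The E-box was searched for in the promoters of the members themselves. RefSeq promoter windows on GRCm38.p6, each of 300 bases with 250 before and 50 after an annotated start, were matched for 8 of the 9 members, not for *Myc*. The letters CACGTG, a palindrome that reads alike on both strands, were in the windows of *Max*, *Mxd4*, *Mnt* and *Mlx*, that is 4 of 8 members with a window, and in those of 2187 of all 27025 genes with a window (8.09%). The 4 sequences are shown because they hold this match, from 250 bases before to 10 bases after the start, with the E-box in capitals. The match begins 219 bases before the start in *Mxd4*, 123 before it in *Mnt*, 40 before it in *Mlx* and 3 before it in *Max*, where it spans the start.
*Mxd4*, chr5:34187701-34187960, minus strand: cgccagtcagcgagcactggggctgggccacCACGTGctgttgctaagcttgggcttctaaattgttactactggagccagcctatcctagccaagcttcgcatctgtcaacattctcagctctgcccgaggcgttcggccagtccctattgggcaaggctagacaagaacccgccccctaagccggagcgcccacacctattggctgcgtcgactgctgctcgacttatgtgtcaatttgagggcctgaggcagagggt
*Mnt*, chr11:74830674-74830933, plus strand: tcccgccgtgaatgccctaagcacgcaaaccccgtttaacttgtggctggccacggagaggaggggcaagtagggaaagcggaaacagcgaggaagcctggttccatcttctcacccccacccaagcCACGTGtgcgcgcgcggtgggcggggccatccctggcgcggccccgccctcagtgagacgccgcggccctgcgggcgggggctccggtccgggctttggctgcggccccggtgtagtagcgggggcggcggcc
*Mlx*, chr11:101087040-101087299, plus strand: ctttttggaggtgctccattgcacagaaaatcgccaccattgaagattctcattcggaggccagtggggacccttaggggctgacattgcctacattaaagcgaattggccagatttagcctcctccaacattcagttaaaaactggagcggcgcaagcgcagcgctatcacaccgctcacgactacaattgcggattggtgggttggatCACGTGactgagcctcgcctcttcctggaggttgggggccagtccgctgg
*Max*, chr12:76962239-76962498, minus strand: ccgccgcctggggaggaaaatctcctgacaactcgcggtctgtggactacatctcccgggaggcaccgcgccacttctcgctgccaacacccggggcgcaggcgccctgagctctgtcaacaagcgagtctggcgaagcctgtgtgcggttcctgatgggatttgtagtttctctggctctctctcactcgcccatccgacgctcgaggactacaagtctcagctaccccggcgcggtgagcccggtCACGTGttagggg

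The values were FPKM (fragments per kilobase of transcript, scaled to mapped fragments), as computed by the authors with Cufflinks. From the steps of 1 fragment at low values, a depth of 20.7 to 20.9 M mapped fragments (M, mega) was estimated for WT and one of 13.2, 20.7 and 17.4 M for cKO 1, 2 and 3. *Nsrp1*, listed as *Ccdc55*, lay between 20.2 and 21.1 in WT and between 15.0 and 17.7 in cKO on the FPKM scale (-0.34 in log2 fold change, with an adjusted p of 0.00675 from limma). The value covers the whole gene, and FPKM of the deleted stretch alone was not analysed here. In 715 to 798 genes per pair, the variance between 2 libraries was compared with that from counting alone (chi-square per degree of freedom). The ratio was 1.51 to 1.61 between any 2 WT libraries and 27.2 to 62.1 between any 2 cKO libraries. The tests were therefore repeated with the WT libraries averaged into 1 sample (the merged-WT fit). *Ddx3y*, *Eif2s3y*, *Kdm5d* and *Uty* of chromosome Y had an FPKM of 0 in each WT library and of more than 5 in each cKO library, so the sex of the mice and the genotype cannot be told apart.

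The cells of both genotypes carried the DP markers. All 10 of the list, among them *Cd4*, *Cd8a*, *Cd8b1*, *Rag1*, *Rag2* and *Dntt*, were tested, with a summed FPKM of 5348 to 5430 in WT and 7205 to 9365 in cKO. Of all genes tested, 35.8% were called higher and 29.8% lower in cKO, which is the background for the counts of markers. Of the 10 DP markers, 6 were called higher and 3 lower, among them *Cd8a* (log2 fold change 0.68) and *Rag2* (0.56) above and *Cd1d1* (-0.50) below. That balance turned to 1 higher and 6 lower under quantile normalization (median -0.22) and to 2 higher and 4 lower where the FPKM totals of the libraries were made equal, and the merged-WT fit called 0 of the 10. Markers of mature single-positive cells moved with the genotype. Of 7, 5 were called lower, with *S1pr1* at -2.21 and *Itgb7* at -1.74, and the summed FPKM of the list was 265.9 to 271 in WT and 228 to 262 in cKO. Of 5 tested early thymocyte markers 3 were called lower, *Il7r* (-1.67), *Hes1* (-0.52) and *Il2ra* (-0.45), with the sum of the 6 markers at 42.7 to 43.5 in WT and 30.6 to 41.2 in cKO. Globin transcripts were low but higher in cKO, *Hbb-b1* with a mean FPKM of 1.65 in WT and 13.2 in cKO, and *Hba-a1* with 0.659 and 7.95. The sum of the 5 erythroid markers was 1.96 to 2.72 in WT and 12.3 to 26.6 in cKO, with *Hbb-bs* near 0. Among B cell markers 5 of 6 were below an FPKM of 1 in every library, and *Cd79b*, the exception, had a log2 fold change of 0.52 (summed level 22.8 to 24.2 in WT and 26.7 to 39.4 in cKO). None of the 3 tested of 8 myeloid and dendritic markers was called, and their sum was 6.28 to 8.23 in WT and 5.20 to 7.47 in cKO. Of the thymic epithelial markers, *Krt5*, *Krt14* and *Foxn1* were listed at 0 throughout, *Epcam* was at -0.34 on the log2 scale and not called (adjusted p = 0.0964 in limma), and the sum was 3.44 to 3.80 in WT and 1.88 to 3.62 in cKO. The part of these cells in the results on the network was not tested.

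In NSrp70-cKO DP thymocytes, 2 members rose and 3 fell. *Mxd3* rose 2.35-fold and *Mlx* 1.49-fold by their mean FPKM, whereas *Mnt*, *Mxd1* and *Myc* fell. *Mycn*, *Max*, *Mxd4* and *Mxi1* did not pass the test, which was limma on log2(FPKM + 1) with p-values adjusted by the Benjamini-Hochberg method over all genes at 0.05. In all genes tested, 65.5% were called, 35.8% higher and 29.8% lower, so the 5 of 9 called members do not stand above the background. The same 5 members had no overlap between the genotypes, as had 72.5% of all genes. The median log2 fold change was 0.034 over the members and 0.039 over all genes. In bulk libraries, fewer cells with a transcript and less transcript per cell cannot be told apart. In the merged-WT fit, *Mxd3* was called higher and *Mnt* lower, and 15.9% of all genes were called, 7.21% higher and 8.73% lower.

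**Figure D1:**
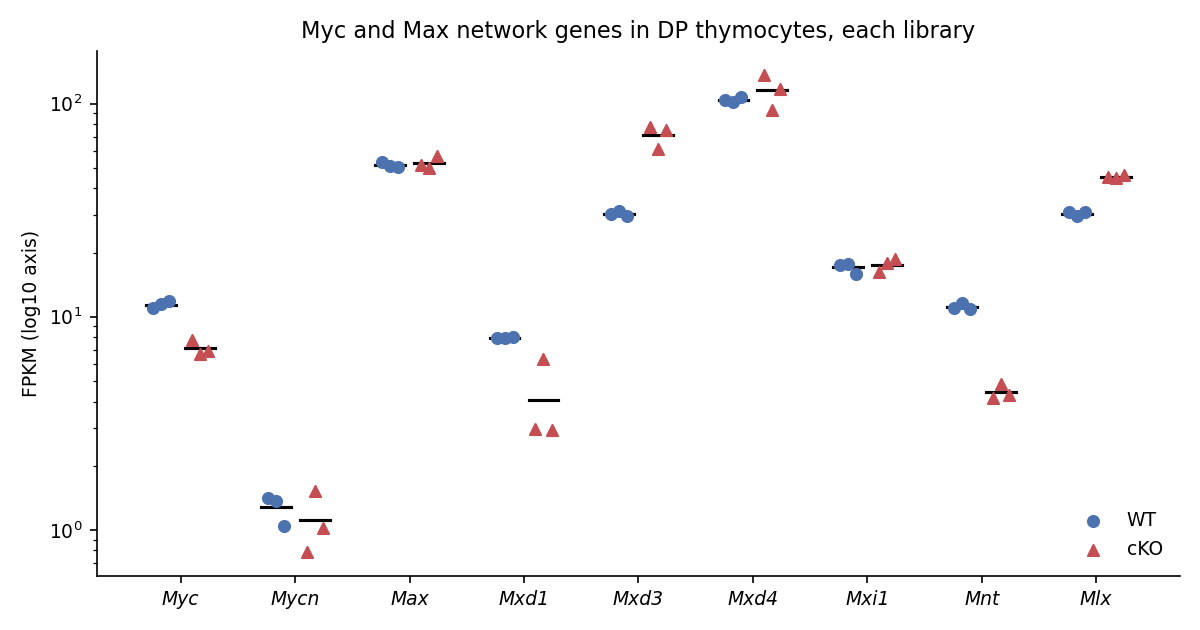
FPKM of the 9 network genes (log10 axis) in each of 3 WT libraries (circles) and 3 cKO libraries (triangles), with the group mean as a bar. The cKO values of *Mxd3* and *Mlx* lie above and those of *Myc*, *Mxd1* and *Mnt* below all WT values, and the genotypes overlap for the other 4 genes.

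The order of the levels, which FPKM allows since it is per length, differed between the genotypes. In WT, *Mxd4* was highest, with a mean FPKM of 104, followed by *Max* at 51.5. *Mlx* and *Mxd3*, both at 30.5, did not differ beyond their spread, nor did *Myc* at 11.4 and *Mnt* at 11.1, with *Mxi1* at 17.0 between these pairs. *Mxd1* at 7.97 and *Mycn* at 1.27 were lowest. In cKO, *Mxd4* came first at a mean FPKM of 116 and *Mxd3* second at 71.7, above *Max* at 52.8 and *Mlx* at 45.4. Below *Mxi1* at 17.6 and *Myc* at 7.11, *Mnt* at 4.42 and *Mxd1* at 4.08 overlapped in their ranges, and *Mycn* was again lowest at 1.11.

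*Myc* (ENSMUSG00000022346, chromosome 15, 61985391 to 61990374 of GRCm38) had an FPKM of 11.0, 11.4 and 11.8 in WT 1, 2 and 3 and of 7.78, 6.70 and 6.87 in cKO 1, 2 and 3. None of the cKO values reached the lowest WT value. *Myc* fell by 0.61 on the log2 scale (standard error 0.078, adjusted p = 0.000649 from limma), and it missed the threshold in the merged-WT fit (adjusted p = 0.0561). *Mycn* (ENSMUSG00000037169, chromosome 12, 12936093 to 12941914) is the paralog used mainly in neural and early lymphoid progenitors. *Mycn* had an FPKM of 1.41, 1.37 and 1.04 in WT and of 0.788, 1.52 and 1.02 in cKO, resting on an estimated 26 to 78 fragments per library. The highest *Mycn* value of all was in a cKO library, and the groups overlapped. Its log2 fold change was -0.12, with a 95% interval of -0.46 to 0.22 (adjusted p = 0.495 from limma). *Mycl*, the third MYC gene, did not exceed an FPKM of 0.0929 in any library and was not tested.

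*Max* (ENSMUSG00000059436, chromosome 12, 76937269 to 76962201), the partner that MYC, MXD and MNT proteins share, had an FPKM of 53.2, 50.8 and 50.5 in WT and of 51.5, 50.0 and 57.0 in cKO. Its cKO values lay on both sides of the WT values. In log2 fold change *Max* was at 0.034, with a 95% interval of -0.14 to 0.21 (adjusted p = 0.704 from limma). It turned negative and passed the test narrowly at -0.16 under quantile normalization (adjusted p = 0.0494) and at -0.17 with GC content and transcript length fitted out (adjusted p = 0.0466). Within each library, *Max* stood at 4.27 to 4.85 times the FPKM of *Myc* in WT and at 6.62 to 8.30 times in cKO, a ratio that no scaling of a library can alter. *Mga* (mean FPKM 13.5 in WT and 13.7 in cKO), a large MAX partner found in a Polycomb repressive complex, had a log2 fold change of 0.017 with a 95% interval of -0.12 to 0.16 (adjusted p = 0.819 from limma).

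The MXD genes did not move together. *Mxd3* (ENSMUSG00000021485, chromosome 13, 55325168 to 55329823), the MXD gene that is expressed in the S phase of dividing progenitors, had an FPKM of 30.4, 31.4 and 29.6 in WT and of 78.2, 61.5 and 75.3 in cKO. Every cKO value lay far above the WT range, with cKO 2 lowest. *Mxd3* rose by 1.20 on the log2 scale (standard error 0.10, adjusted p = 0.000176 from limma), and it passed the merged-WT fit as well (adjusted p = 0.0300). In all genes tested, 8.59% were called with a log2 fold change of at least 1 in either direction. The 3 prime end of *Mxd3* shares 105 bases with *Prelid1* on the opposite strand, whose log2 fold change was 0.40. The library kit keeps the strand, but the strand setting of the authors' counting is not stated.

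*Mxd1* (ENSMUSG00000001156, chromosome 6, 86647042 to 86669161), a repressor induced when cells leave the cycle, had an FPKM of 7.93, 7.95 and 8.03 in WT and of 2.97, 6.34 and 2.93 in cKO. All cKO values were below WT, but cKO 2 stood near WT and away from cKO 1 and 3, with a ratio of 2.16 between the highest and the lowest cKO library. *Mxd1* had the widest spread among the cKO libraries of all members (coefficient of variation 48.0%) and the narrowest among the WT libraries (0.695%). *Mxd1* fell by 0.89 on the log2 scale (standard error 0.23, adjusted p = 0.0120 from limma). Without cKO 3 the log2 fold change was -0.74 and the call was narrowly lost (adjusted p = 0.0527), whereas without cKO 1 it was also -0.74 and the call held (adjusted p = 0.0427). The merged-WT fit did not call *Mxd1* (adjusted p = 0.119).

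*Mxd4* (ENSMUSG00000037235, chromosome 5, 34173883 to 34187720), a repressor typical of resting and differentiating cells, had an FPKM of 104, 101 and 108 in WT and of 137, 93.9 and 117 in cKO. The cKO libraries 1 and 3 lay above and cKO 2 below the WT range. With a log2 fold change of 0.13, *Mxd4* had a 95% interval of -0.19 to 0.45 (adjusted p = 0.426 from limma). It was called higher without cKO 2, at 0.28 (adjusted p = 0.0155), and with GC content and transcript length fitted out, at 0.55 (adjusted p = 0.0106). It was called lower, at -0.43, with FPKM totals made equal (adjusted p = 0.00858). *Mxi1* (ENSMUSG00000025025, chromosome 19, 53310518 to 53375810), the remaining MXD gene, had an FPKM of 17.5, 17.8 and 15.9 in WT and of 16.3, 17.9 and 18.6 in cKO. The groups overlapped, and the log2 fold change of *Mxi1* was 0.039, with a 95% interval of -0.14 to 0.22 (adjusted p = 0.669 from limma). Within a library, the FPKM of *Mxd3* was 0.274 to 0.310 times that of *Mxd4* in WT and 0.571 to 0.655 times in cKO.

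*Mnt* (ENSMUSG00000000282, chromosome 11, 74830920 to 74845725), the broadly expressed antagonist of MYC, had an FPKM of 10.9, 11.5 and 10.8 in WT and of 4.16, 4.82 and 4.28 in cKO. The cKO libraries formed a narrow group far below WT. *Mnt* fell by 1.16 on the log2 scale (standard error 0.073, adjusted p = 0.000101 from limma), also in the merged-WT fit (adjusted p = 0.0294). The transcript of *Mnt* has a GC content of 59.5%, the highest of the 9, and with GC content and transcript length fitted out its log2 fold change was -0.48 (adjusted p = 0.00284).

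*Mlx* (ENSMUSG00000017801, chromosome 11, 101087277 to 101092207) had an FPKM of 31.0, 29.6 and 30.9 in WT and of 45.2, 44.7 and 46.3 in cKO. The cKO libraries agreed within 1.04-fold and lay above WT without overlap. *Mlx* rose by 0.56 on the log2 scale (standard error 0.059, adjusted p = 0.000340 from limma). The call was lost in the merged-WT fit (adjusted p = 0.0572) and with FPKM totals made equal, where *Mlx* stood at 0.012 (adjusted p = 0.908). *Mlx* shares 385 bases at its 3 prime end with *Psmc3ip* on the opposite strand, whose log2 fold change was 0.94. *Mlxip*, which encodes MondoA, the main partner of MLX in lymphocytes, went the other way, with an FPKM of 14.5, 14.4 and 14.6 in WT and of 4.27, 6.04 and 4.75 in cKO. *Mlxip* fell by 1.38 on the log2 scale (standard error 0.11, adjusted p = 0.000146 from limma). Within a library, *Mlx* was 2.06 to 2.14 times the FPKM of *Mlxip* in WT and 7.40 to 10.6 times in cKO. *Mlxipl*, which encodes ChREBP, was listed at 0 in 5 of 6 libraries and not tested.

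**Figure D2:**
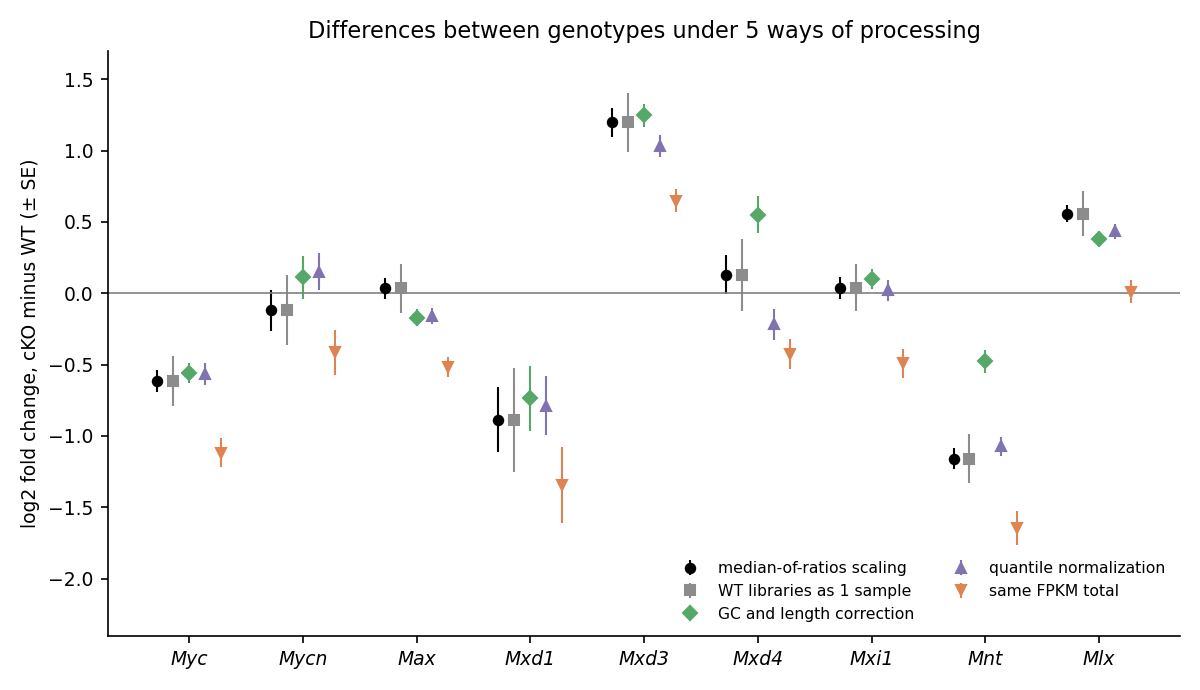
Log2 fold change (cKO minus WT) of each member with its standard error, under the scaling by median-of-ratios size factors and 4 other ways of processing. *Mxd3* stays above 0 and *Myc*, *Mxd1* and *Mnt* stay below 0 in all 5, *Mlx* comes to 0.012 where FPKM totals were made equal, and the values of *Mycn*, *Max*, *Mxd4* and *Mxi1* lie on both sides of 0.

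The scaling of the libraries bears on these directions, since the total FPKM of a library was 521296 to 531517 in WT but 701396 to 850548 in cKO. Making these totals equal moved the median of all genes from 0.039 to -0.45. Of all genes, 68.6% were then called, 8.74% higher and 59.9% lower, and 1 member was called higher and 7 lower. *Mxd3* was the member called higher, at 0.65, and *Myc*, *Mxd1* and *Mnt* were at -1.12, -1.35 and -1.64. *Max*, *Mxi1* and *Mycn* were at -0.52, -0.49 and -0.41, close to the median of all genes in that setting. Quantile normalization called 2 members higher and 4 lower, against 63.1% of all genes, 33.7% higher and 29.4% lower. Fitting out GC content and transcript length called 3 members higher and 4 lower, against 57.0% of all genes, 31.9% higher and 25.1% lower.

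The make-up of the network, which does not depend on the scaling of a library, is given by the share of each gene in the summed FPKM of the 9. That sum was 263 to 267 in WT and 344, 287 and 329 in cKO 1, 2 and 3. *Mxd3* made up 11.5% ± 0.414 (SD, n = 3) of it in WT and 22.3% ± 0.817 (SD, n = 3) in cKO. *Mnt* made up 4.18% ± 0.178 in WT and 1.40% ± 0.248 in cKO, and *Myc* 4.29% ± 0.168 and 2.23% ± 0.125 (SD, n = 3 each). *Mxd4* held the largest share in every library, at 38.5% to 40.5% in WT and 32.7% to 39.8% in cKO. The summed FPKM of the 5 repressor genes *Mxd1*, *Mxd3*, *Mxd4*, *Mxi1* and *Mnt* was 13.8, 13.3 and 13.4 times that of *Myc* and *Mycn* in WT and 27.8, 22.4 and 27.6 times in cKO. All cKO ratios lay above all WT ratios, with means of 13.5 ± 0.259 in WT and 26.0 ± 3.05 in cKO (SD, n = 3 each). The summed FPKM of the repressor genes averaged 171 in WT and 214 in cKO, and that of *Myc* and *Mycn* 12.7 and 8.23. Among the 5 repressor genes only *Mxd3* was called higher, with a mean FPKM of 30.5 in WT and 71.7 in cKO. *Mnt* and *Mxd1* were called lower, and *Mxd4* and *Mxi1* did not pass the test. A lack of overlap between the genotypes was also seen for 72.5% of all genes. GC content and transcript length were not fitted out of these shares and ratios. With both fitted out, the log2 fold change of *Mnt* moved from -1.16 to -0.48 and that of *Mxd4* from 0.13 to 0.55.

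**Figure D3:**
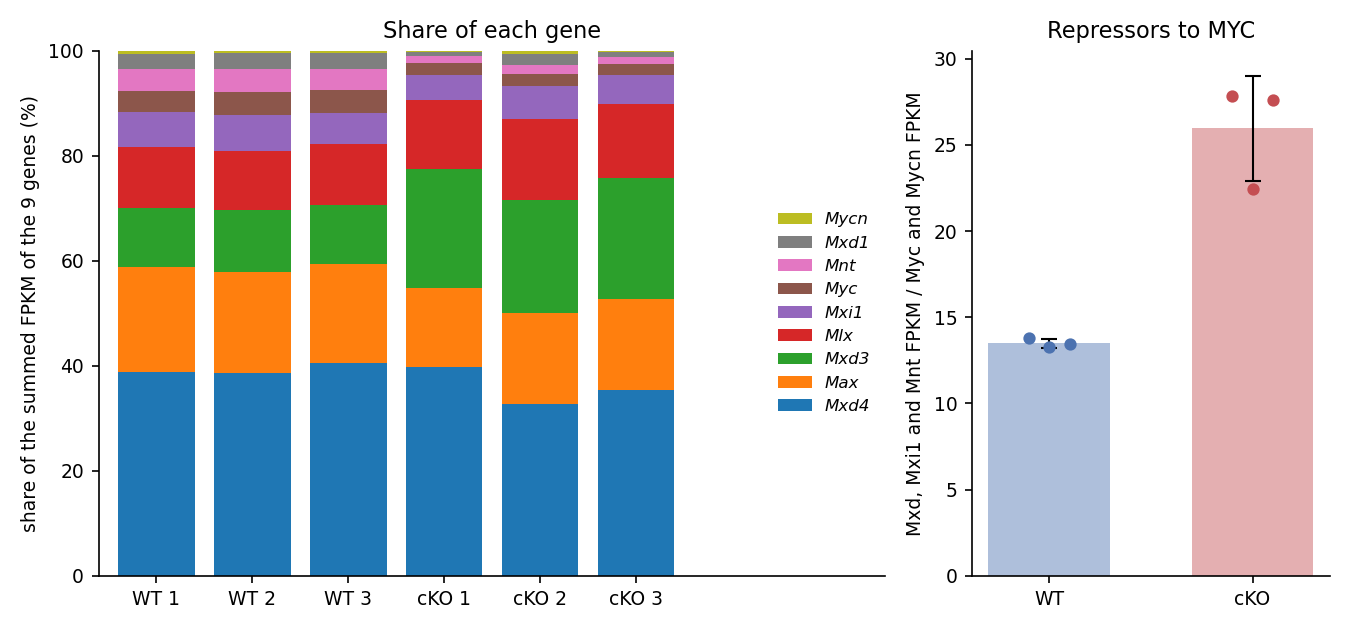
Left, share of each gene in the summed FPKM of the 9 network genes, per library (%). Right, summed FPKM of *Mxd1*, *Mxd3*, *Mxd4*, *Mxi1* and *Mnt* divided by that of *Myc* and *Mycn*, as points per library with the mean (bar) and SD (error bar, n = 3). The *Mxd3* band is 11.5% on average in WT and 22.3% in cKO, and the ratio is 13.5 in WT and 26.0 in cKO.

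The 4 members with an E-box in the printed promoters had no common direction, with *Mlx* higher, *Mnt* lower and *Max* and *Mxd4* not passing the test. Patterns over the 6 libraries were compared with those of all other tested genes by the root mean square difference of mean-centred log2(FPKM + 1). Nearest to *Mxd3*, the called member with the largest rise, were *Mrpl42*, a protein of the mitochondrial ribosome (0.046), the annexin gene *Anxa2* (0.050) and the kinetochore gene *Knstrn* (0.051). Nearest to *Mnt*, the called member with the largest fall, were *Gmip* (0.026), *Trp53i11* (0.033) and *Zfp395* (0.037).

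Proliferation markers moved with the genotype in the same direction as *Mxd3*. All 12 were called higher, against 35.8% of all genes tested. Their median log2 fold change was 1.09, with the mitotic kinase *Cdk1* at 1.11 and its cyclin *Ccnb1* at 1.32. Their summed FPKM was 1213 to 1218 in WT and 2591, 2457 and 2800 in cKO 1, 2 and 3. Their part in the values of *Mxd3* and *Myc* was not tested.

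Of 16 cofactor and turnover genes of MYC, 5 were called higher and 7 lower, with a median of -0.21. For comparison, 35.8% of all genes tested were called higher and 29.8% lower, with a median of 0.039. The scaffold *Trrap* and the chromatin remodeller *Ep400* fell with log2 fold changes of -0.89 and -0.67, whereas *Ruvbl1* and *Ruvbl2* rose by 1.11 and 0.49. *Kat5* was at 0.021 and did not pass the test (adjusted p = 0.761 from limma). *Aurka*, a mitotic kinase that stabilizes MYCN, rose by 1.18, and *Skp2*, a ubiquitin ligase subunit of the cell cycle, by 1.02. In the 17 genes of the SIN3 co-repressor, 8 were called higher and 2 lower, with a median of 0.25. The histone-binding subunit *Rbbp7* (0.83) and the deacetylase *Hdac2* (0.69) rose, and *Sap130* (-0.29) and *Sap30l* (-0.26) fell. In the merged-WT fit, 3 cofactor genes were called in each direction and 1 SIN3 gene was called, higher.

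Genes known to be activated by MYC were counted in 3 lists, beside the 35.8% of all genes called higher and 29.8% called lower. Of 17 target genes of the nucleolus and ribosome assembly, 11 were called higher and 0 lower, with a median of 0.44. *Nop58* and *Nop56*, core proteins of box C/D snoRNPs, rose by 1.00 and 0.59, and *Polr1b*, a subunit of RNA polymerase I, was at -0.18 (adjusted p = 0.205 from limma). Of 9 targets in the cell cycle and translation, 7 were called higher, among them the chaperonin *Hspe1* (1.15) and the cap-binding factor *Eif4e* (0.76), and 1 was called lower. The lower gene was *Ccnd2*, cyclin D2, with a mean FPKM of 5.18 in WT and 0.763 in cKO (log2 fold change -1.80, adjusted p = 8.29e-05 from limma). Targets in metabolism and transport were split, with 5 of 13 tested called higher and 4 lower and a median of 0.036, and with 3 higher and 2 lower without WT 1 or without WT 2. The purine synthesis enzyme *Ppat* (0.79) and the nucleoside diphosphate kinase *Nme1* (0.60) rose, and the amino acid transporter subunit *Slc3a2* (-0.39) and the glucose transporter *Slc2a1* (-0.56) fell.

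Of 4 tested genes known to be repressed by MYC, *Cdkn1a*, the cell cycle inhibitor p21, rose from a mean FPKM of 1.34 to 2.55 (log2 fold change 0.60) and *Ndrg1* fell by 0.29 on the log2 scale. The call of *Cdkn1a* was lost in the merged-WT fit, where 0 of the 4 were called, and with FPKM totals made equal, where 0 were called higher and 2 lower. Without cKO 2, 1 was called higher and 3 lower. *Gadd45a* (-0.53, adjusted p = 0.0917) and *Cdkn1b* (-0.12, adjusted p = 0.675) did not pass the test in limma, and *Cdkn2b* was not tested. Of the MondoA targets, *Txnip* was at -0.094 (adjusted p = 0.409) and *Arrdc4* fell by 0.46 (adjusted p = 0.0250 from limma), both genes of arrestin-domain proteins that limit glucose uptake. The call of *Arrdc4* was lost in the merged-WT fit and without WT 1, WT 2, cKO 1 or cKO 3.

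**Figure D4:**
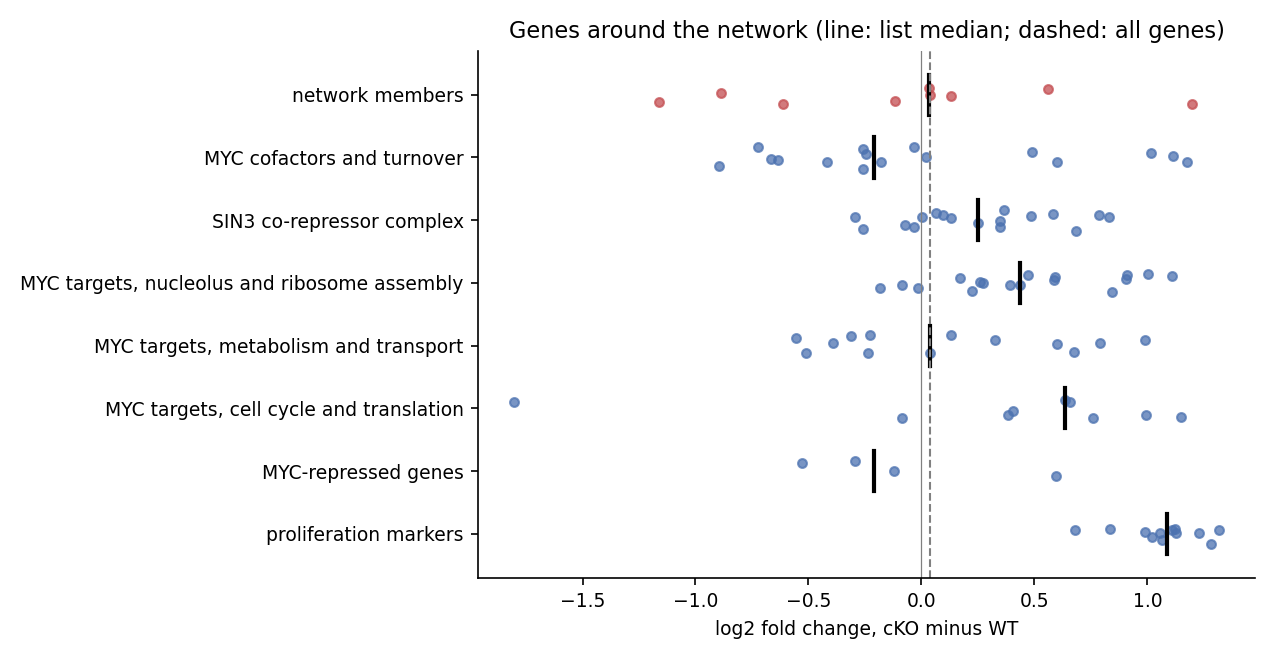
Log2 fold change (cKO minus WT) of each tested gene in the network and in lists of genes around it, with the list median as a black line and the median of all genes as a dashed line. The 12 proliferation markers all lie above 0, the 9 members spread from -1.16 to 1.20, and *Ccnd2* at -1.80 stands apart from the other cell cycle and translation targets.

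The calls in the target lists depended on the scaling and on the WT libraries. In the merged-WT fit, 2 nucleolar, 3 cell cycle and translation and 1 metabolic target were called higher, *Ccnd2* was called lower, and no other gene of these lists was called lower. With FPKM totals made equal, 8.74% of all genes were called higher and 59.9% lower. In that setting, 5 nucleolar targets were called higher and 5 lower, with a list median of -0.094 against -0.45 for all genes. The cell cycle and translation targets then had 2 called in each direction (median 0.080) and the metabolic targets 2 higher and 8 lower (median -0.51). The SIN3 genes went from 8 higher and 2 lower to 1 higher and 10 lower (median -0.29 against -0.45 for all genes). Under quantile normalization 4 SIN3 genes were called in each direction, against 33.7% of all genes higher and 29.4% lower. With FPKM totals made equal, the cofactor genes came to 3 higher and 11 lower, whereas 11 of 12 proliferation markers were still called higher.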

How the data were processed

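The data were mRNA-seq libraries of sorted DP thymocytes, 3 WT and 3 NSrp70-cKO. The authors made them strand-specific and poly(A)-enriched, aligned trimmed reads to mm10 by TopHat and deposited Cufflinks FPKM values, 1 per gene symbol. Versions, annotation and strand setting are not given in the sources used here.

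After division by median-of-ratios size factors (1.00 to 1.01), log2(FPKM + 1) was compared between genotypes by limma 3.58.1 (R 4.3.3, eBayes with a trend, two-sided). A gene was tested if 3 libraries or more had an FPKM of at least 1. Fold changes on this scale understate those of low genes. Depth was estimated at 2612 single-transcript genes, assuming fragments of 200 bases. Genes were located in GENCODE M21 (GRCm38). The fit was tested on simulated data.

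Members and gene lists were chosen with earlier results of these data known. Besides the members, the 2 top called genes by adjusted p in either direction are named for each list. Every gene of lists of 5 or fewer is named as well. *Il2ra*, *Polr1b*, *Ruvbl1*, *Ruvbl2*, *Kat5* and genes named as list members without values are additions made after values were seen. Some genes that this rule names are not reported here. Alternatives covered pseudocount, filter, scaling, replicate block, trend, GC content with length (natural splines), merged WT libraries, and each library left out.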

Additional observations from a re-analysis of the deposited data

How the results depend on the processing

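*Mxd3* and *Mnt* kept their direction and their adjusted p under 0.05 in all alternatives run. *Myc*, *Mxd1* and *Mlx* kept their sign in all of them, but not their calls. With FPKM totals made equal, *Mlx* came to 0.012 (adjusted p = 0.908 from limma). Without cKO 3, *Mxd1* lost its call (adjusted p = 0.0527 from limma). Merging the WT libraries into 1 sample gave 1645 genes called in place of 6766 and 2 members in place of 5, and equal FPKM totals gave 8 members. With each library left out in turn, 4 to 6 members and 5404 to 7637 genes were called, and the mean ratio of repressor to MYC FPKM was 13.4 to 13.6 in WT and 25.0 to 27.7 in cKO.

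Signs changed for members that had not passed the test. *Mycn* was at 0.15 under quantile normalization and 0.11 with GC content and transcript length fitted out. In the same settings *Max* was at -0.16 and -0.17, and *Mxd4* at -0.22 (quantile normalization only). With FPKM totals made equal, *Max*, *Mxd4* and *Mxi1* were at -0.52, -0.43 and -0.49. With each library left out in turn, *Max* ranged from -0.023 to 0.081 and *Mxi1* from -0.0044 to 0.094. The cause was not tested.

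Same-numbered WT and cKO libraries share only a number, as their deviations from the group means correlated at -0.022, 0.038 and 0.031 for numbers 1, 2 and 3. With the replicate block, 6467 genes and 5 members were called, and not every library correlated best with its own number. Depth limits *Mycn* most, at an estimated 26 fragments in its lowest library.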
